A study of Mus musculus with 6 samples.

Results

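The cytochrome P450 genes were examined in RNA of the small intestinal mucosa of mice whose pools carried the label Rbm47_IKO (Rbm47-IKO below) and of wild type mice, labelled wt. Members were all genes of the deposited tables whose symbol is Cyp followed by a family number, a subfamily letter and a gene number, which gave 94 of 38561 genes. They fall into 16 families and 39 subfamilies. The rule uses names alone. Of the 94, 41 passed the filter on low counts and were tested, 9 had no count in any of the 6 pools, 36 had at most 9 counts in any pool and 8 had more but too few to pass.

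Each genotype was sequenced as 3 pools of polyadenylated RNA, and the labels give 3 mice of both sexes to a pool, C57BL/6J, aged 8 to 12 weeks. In the Rbm47-IKO line a Villin promoter drives Cre in the gut epithelium, where it deletes floxed Rbm47, an RNA-binding protein gene. Cells of the mucosa outside the epithelium keep the gene. The study's methods describe floxed mice without Cre as the controls, which the labels call wild type, and give a number of mice per pool that differs slightly from the labels'. They also state that mice received BrdU, a thymidine analogue, before harvest, with no group excepted. Pools average over mice, so the spread between pools is not that between animals. The labels assign both sexes to the pools, but sex-linked genes, given below, differed widely between pools.

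Rbm47 itself, at chr5:66016549-66173117 on the minus strand (GRCm38), showed no lower level under the Rbm47-IKO label. Its CPM values (read counts scaled to a common library size, which the TMM method of edgeR adjusts) were 602.7, 625 and 620 in the labelled Rbm47-IKO pools against 459.8, 449.9 and 472 in the wt pools. All 3 labelled Rbm47-IKO pools lay above all 3 wt pools (log2 fold change 0.42, adjusted p = 0.0751 in edgeR's quasi-likelihood test with Benjamini-Hochberg adjustment, used throughout). Which exons the deletion removes is not given in the sources used here, and the counts cover the whole gene. Other genes did separate the 2 labels. Fndc5, for example, which was chosen with its values known, was at 8.43, 8.40 and 11.5 CPM against 0.853, 1.13 and 1.21 CPM (log2 fold change 3.14, SE 0.24, adjusted p = 0.00596). The groups are called by their labels, and every direction below is that of the libraries labelled Rbm47-IKO relative to those labelled wt.

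The pools held 31560320 to 38951830 counts, and the P450 genes took 0.443% to 0.519% of them in the labelled Rbm47-IKO pools and 0.653% to 0.679% in the wt pools. Other features of the pools moved with or across the groups. Summed smooth muscle genes ranged from 361 to 3302 CPM in labelled Rbm47-IKO pools and from 90.7 to 2803 CPM in wt pools, with labelled Rbm47-IKO pool 3 and wt pool 2 standing apart. Xist was 1.09 CPM or less in wt pools 1 and 3 and 40.3 to 258 CPM in the other 4 pools, while summed Y-linked genes were highest in those 2 wt pools (215 and 220 CPM), 87.9 CPM in wt pool 2 and 53.0 to 144 CPM in labelled Rbm47-IKO pools. The mix of sexes therefore differed between pools, and wt pools 1 and 3 held little or no female RNA judged by Xist. Summed enterocyte markers were 47296 to 52240 CPM in labelled Rbm47-IKO pools against 58704 to 65485 CPM in wt pools, although of the 10 markers none passed the test, 3 were lower and 1 was higher at an unadjusted p under 0.05, and 5 had a log2 fold change above 0. Vil1, the villin gene that defines this epithelium, overlapped between the groups (log2 fold change -0.17). Markers of the distal small intestine summed to 457 to 618 CPM against 311 to 439 CPM, with none of 5 past the test and 3 higher at an unadjusted p under 0.05. Goblet cell markers summed to 22078 to 25534 CPM against 16538 to 19329 CPM, with none of 7 past the test, 2 higher at an unadjusted p under 0.05 and all 7 above 0. Enteroendocrine markers summed to 129 to 142 CPM against 171 to 213 CPM, with 1 of 9 (Ghrl) called lower, 4 lower at an unadjusted p under 0.05 and 8 below 0. Proximal markers overlapped in sum (5004 to 6201 against 4265 to 5717 CPM), with none of 6 past the test, 2 higher at an unadjusted p under 0.05 and 5 above 0. Paneth cell markers (5 of 5 below 0) and B and plasma cell markers (7 of 8 below 0, 1 called higher) overlapped in sum too. The colon marker Hoxb13 reached 2.60 to 5.18 CPM against 0 to 0.553 CPM, while Car1 and Hoxd13 were at 0 in all pools. Liver markers summed to 8.21 CPM or less in every pool, far below the enterocyte list. Muscle and Y-linked genes were each entered as a covariate, and both pools rich in muscle genes were left out in turn and together, with the P450 calls that remained given below. The part of the other features in the P450 values was not tested.

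Cytochrome P450 enzymes are heme proteins that insert an oxygen atom into their substrates. Most sit in the endoplasmic reticulum and receive electrons from P450 reductase, encoded by Por, while a few sit in mitochondria and receive them from ferredoxin. The Cyp1, Cyp2 and Cyp3 families oxidise many drugs and food chemicals, and in the gut they act on what is swallowed before it reaches the liver. The Cyp4 family hydroxylates the far end of fatty acids and eicosanoids, and the families with higher numbers act mostly on sterols, steroid hormones, retinoic acid and vitamin D. Several are switched on by ligand-activated factors, such as Cyp1a1 by the aryl hydrocarbon receptor, Cyp3a11 by the pregnane X receptor, Cyp2b10 by the constitutive androstane receptor and Cyp4a10 by PPARα.

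The summed level of the 94 members was 4502, 5220 and 5013 CPM in the labelled Rbm47-IKO pools and 6345, 6649 and 6821 CPM in the wt pools. The groups did not overlap, with means of 4911 ± 370 and 6605 ± 241 CPM (SD, n = 3 pools each), 1.34-fold higher in wt. Few genes made up this sum. Cyp4f14 alone supplied 27.4% of the members' CPM over the 6 pools, and the 5 members with the highest level per length supplied 71.1%. On a scale per length (RPKM, the same CPM per kilobase of gene), 20 tested members averaged above 10 and 14 averaged below 1. Because tissue was measured in bulk, fewer cells of a type and less RNA per cell cannot be told apart.

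**Figure D1:**
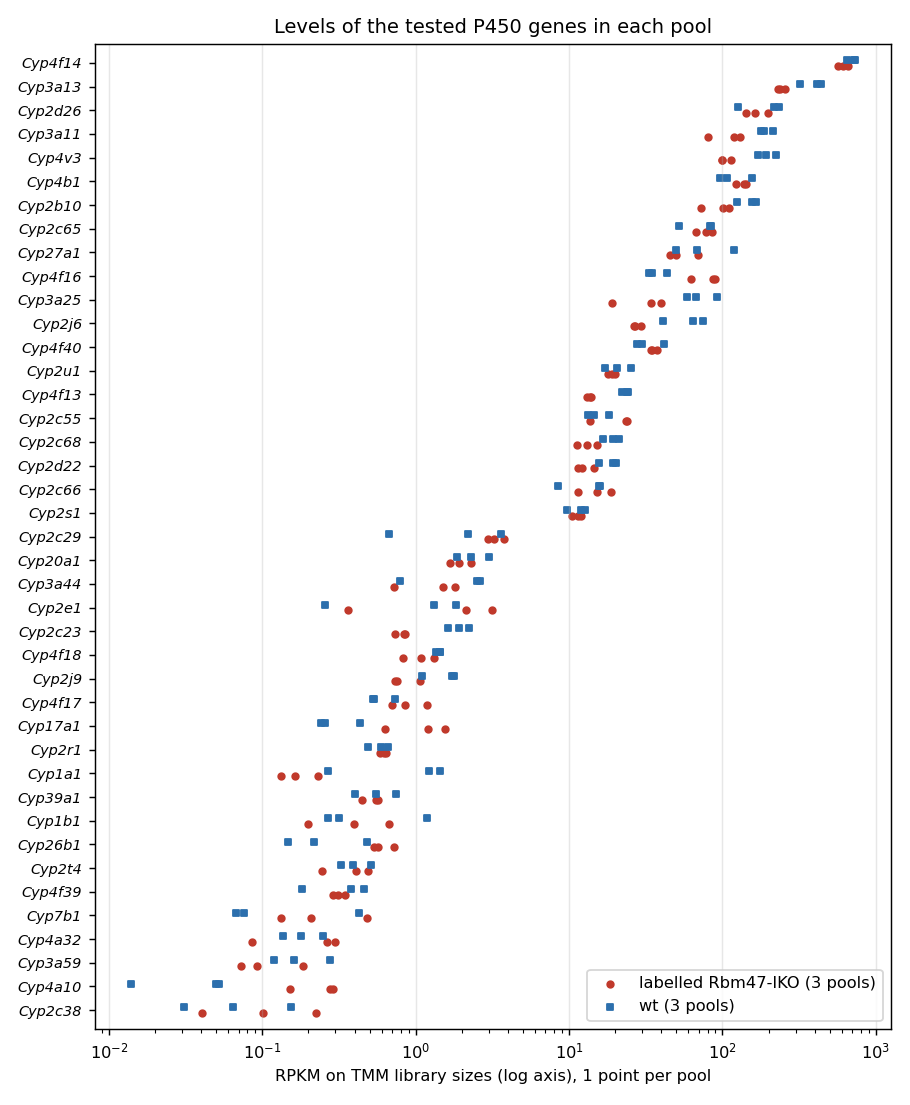
Level of each of the 41 tested P450 genes in every pool, in RPKM on TMM library sizes (log axis), ordered by the mean over all pools; red circles are the 3 pools labelled Rbm47-IKO and blue squares the 3 wt pools. Cyp4f14 averaged 656 RPKM and Cyp2c38, the lowest, 0.102 RPKM, and the red and blue points of Cyp3a13, Cyp4v3, Cyp2j6, Cyp4f13 and Cyp4f16 do not overlap.

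Of the 41 tested members, 5 passed the test, against 2.7% of all 16425 tested genes. A group of 4 passed with a lower level in the labelled Rbm47-IKO libraries (9.76%, against 1.25% of all tested genes) and 1 with a higher level (2.44%, against 1.45%). Cyp4f13, Cyp4v3, Cyp2j6 and Cyp2c23 fell, and Cyp4f16 rose. At an unadjusted p under 0.05, 12 members were lower and 4 higher, against 8.21% and 8.57% of all tested genes. Pools did not overlap for 13 members that were lower and 4 that were higher, against 11.6% and 11.7% of all tested genes. In both counts the 4 higher include Cyp4a10, which passed the filter only through the labelled Rbm47-IKO pools and carries no weight. The median log2 fold change was -0.14 over the tested members and -0.01 over all tested genes, with 25 members below 0 and 16 above. The number of members called depended on single pools. Without labelled Rbm47-IKO pool 1 it was 0 (0.187% of all genes tested in that fit), with 12 lower and 4 higher at an unadjusted p under 0.05 (6.03% and 5.86% of all). Without its pool 2 it was 0 (0.0% of all), with 12 lower and 3 higher unadjusted (4.99% and 5.18%), and without wt pool 3 it was 0 (0.0649%), with 11 and 3 unadjusted (5.4% and 7.6%). Without labelled Rbm47-IKO pool 3 it was 1 lower and 1 higher (0.71% of all genes in either direction), without wt pool 1 it was 6 lower and 0 higher (1.98%), and without wt pool 2 it was 3 lower and 2 higher (2.58%). The 6 lower include Cyp2j11, which entered that fit through the wt pools where it was high and carries no weight. DESeq2 called 11 members lower and 2 higher, the 5 above among them, against 3.89% and 4.5% of the 14818 genes to which it gave an adjusted p. Of these 5, Cyp4f13 and Cyp4f16 still passed with an offset for GC content and also with both muscle-rich pools left out, and Cyp4f13 alone with a covariate of Y-linked genes. For the fit without both muscle-rich pools the share of all genes called is not given here, so its calls cannot be set beside it. None of these 5 passed with the replicate number as a block, alone or with the GC offset. With a covariate of muscle genes all 5 passed, among 11 members lower and 3 higher. The 3 higher include Cyp4a10, which passed the filter only through the labelled Rbm47-IKO pools, so its call carries no weight. The number of all genes called in that fit is given in the section on processing.

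**Figure D2:**
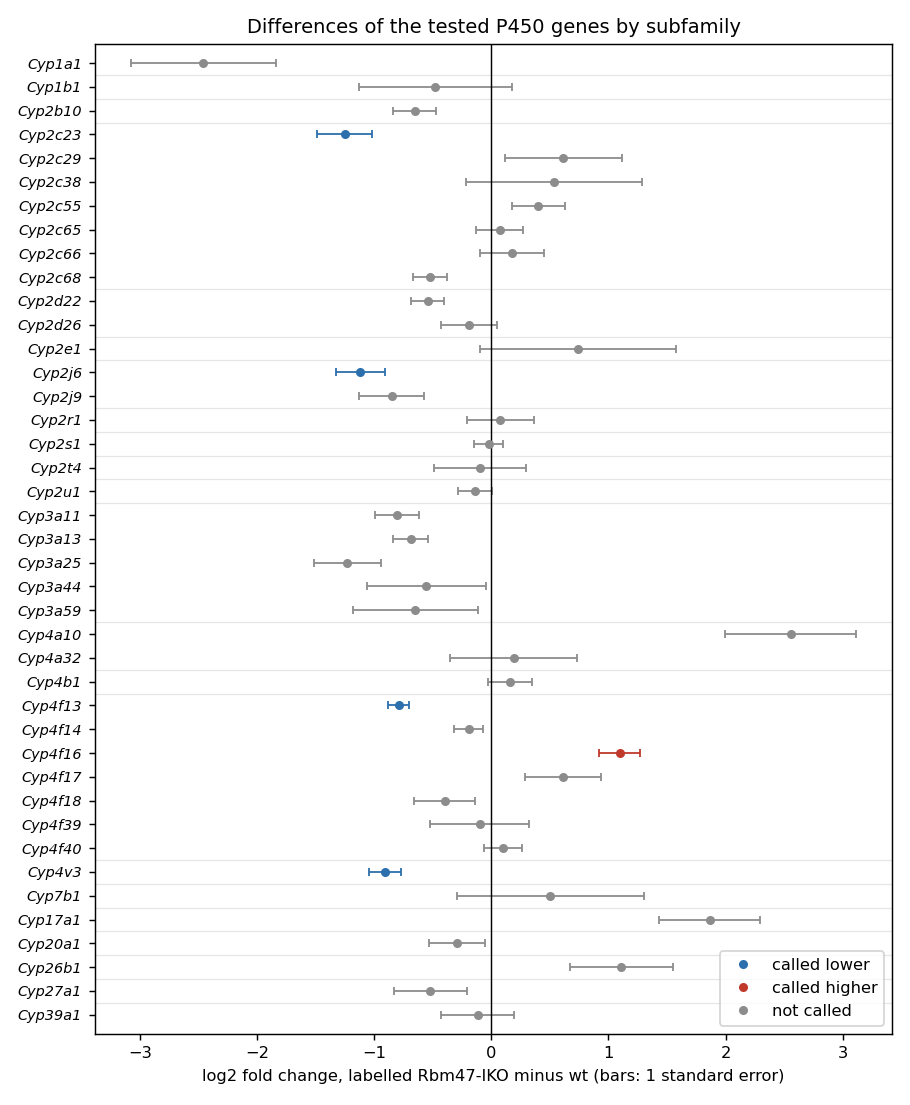
Log2 fold change (labelled Rbm47-IKO minus wt, with 1 standard error) of the 41 tested P450 genes, grouped by subfamily; blue marks the 4 genes that passed the test as lower, red the 1 that passed as higher and grey those that did not pass. All 5 tested Cyp3a genes lie left of 0, and the Cyp4f genes lie on both sides, with Cyp4f13 at -0.79 and Cyp4f16 at 1.10.

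The stretches upstream of 4 of the called genes are shown because these genes carry the calls and because Cyp4f13 and Cyp4f16 belong to 1 gene cluster and moved in opposite directions. Sequences are from RefSeq on GRCm38.p6, 5′ to 3′ on the gene's strand, and end before the more upstream of the RefSeq start and the start in the deposited tables. They are Cyp4f13 at chr17:32947403-32947611 (minus strand), Cyp4f16 at chr17:32536307-32536556 (plus strand), Cyp2j6 at chr4:96553662-96553901 (minus strand) and Cyp4v3 at chr8:45333217-45333413 (minus strand). Capitals mark matches, on either strand, to GCGTG (the core of the response element of the aryl hydrocarbon receptor), AGGTCA and AGTTCA (core sites of nuclear receptors) and TATAAA (the TATA box).
Cyp4f13: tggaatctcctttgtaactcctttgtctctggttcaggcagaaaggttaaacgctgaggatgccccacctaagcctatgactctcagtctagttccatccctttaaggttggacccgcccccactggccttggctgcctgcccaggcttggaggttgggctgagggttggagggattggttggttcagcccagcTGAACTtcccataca
Cyp4f16: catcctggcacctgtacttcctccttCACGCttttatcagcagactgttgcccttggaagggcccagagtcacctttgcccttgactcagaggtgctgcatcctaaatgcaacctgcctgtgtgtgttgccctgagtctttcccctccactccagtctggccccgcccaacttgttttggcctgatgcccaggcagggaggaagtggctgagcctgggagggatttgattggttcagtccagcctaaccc
Cyp2j6: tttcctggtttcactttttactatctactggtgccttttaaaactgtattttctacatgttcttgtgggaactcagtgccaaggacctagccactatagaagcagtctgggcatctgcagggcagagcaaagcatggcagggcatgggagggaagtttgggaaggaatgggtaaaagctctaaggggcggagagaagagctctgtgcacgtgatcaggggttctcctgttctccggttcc
Cyp4v3: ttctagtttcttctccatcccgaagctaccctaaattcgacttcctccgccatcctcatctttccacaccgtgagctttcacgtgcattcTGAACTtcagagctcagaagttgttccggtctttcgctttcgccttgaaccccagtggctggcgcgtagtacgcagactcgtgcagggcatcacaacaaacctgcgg
Cyp4f13 and Cyp4v3 each hold TGAACT, the reverse complement of AGTTCA, at positions -56 and -160 from the RefSeq start, and Cyp4f16 holds CACGC, the reverse complement of GCGTG, at -224. Cyp4v3 also has GCGTG at -16, past the stretch shown. None of these letters occurs upstream of Cyp2j6. Among 32851 RefSeq windows of 300 bases (250 before to 50 after a start), 32.4% hold GCGTG, 16.3% AGGTCA, 14.0% AGTTCA and 13.6% TATAAA. Of the 33 tested members with such a window, 11, 6, 5 and 12 hold them. A match here is a description of letters and not a bound site.

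Cyp4f genes encode hydroxylases of leukotrienes, long fatty acids and the side chains of vitamins E and K, and 6 of the 7 tested lie in a cluster on chromosome 17. Cyp4f14 (chr17:32905071-32917342), the most abundant member per length in these pools, measured 1362, 1595 and 1461 CPM in labelled Rbm47-IKO pools and 1747, 1743 and 1556 CPM in wt pools. The groups overlapped (log2 fold change -0.19, SE 0.12, adjusted p = 0.516). Next to it, Cyp4f13 (chr17:32924688-32947402) was at 43.3, 45.5 and 46.3 CPM against 79.4, 80.2 and 74.1 CPM. Every labelled Rbm47-IKO pool lay far below every wt pool, with the smallest SE of any called member, and the gene fell by 0.79 on the log2 scale (SE 0.09, adjusted p = 0.0100), 1.73-fold lower in mean CPM. Its adjusted p lay between 0.0225 and 0.0946 when single pools were left out, and missed 0.05 without labelled Rbm47-IKO pool 1 (0.0675), its pool 2 (0.0946) or wt pool 3 (0.0504), while the log2 fold change stayed between -0.82 and -0.76.

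Cyp4f16 (chr17:32536558-32551798), 372.89 kb from Cyp4f13 on the other strand, went the other way. It measured 263, 268 and 188 CPM in labelled Rbm47-IKO pools and 104, 100.3 and 131 CPM in wt pools, and its groups did not overlap. It rose 2.14-fold in mean CPM (log2 fold change 1.10, SE 0.17, adjusted p = 0.0249). That call was lost without labelled Rbm47-IKO pool 1 (0.113), its pool 2 (0.145), wt pool 1 (0.0639) or wt pool 3 (0.0621), with log2 fold changes of 1.01 to 1.25 over all pools left out in turn. Its transcripts share 26.5% of their windows of 50 bases exactly with other members, most with Cyp4f37, so that part of its reads could be placed in more than 1 gene; Cyp4f37 itself was at or near 0 in all pools. Per length, Cyp4f16 stood 6.71, 6.50 and 4.49 times as high as Cyp4f13 in the labelled Rbm47-IKO pools but 1.45, 1.38 and 1.96 times as high in the wt pools (5.90 ± 1.22 against 1.60 ± 0.314, SD). That ratio restates the differences of the 2 genes and is no further test of them.

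**Figure D3:**
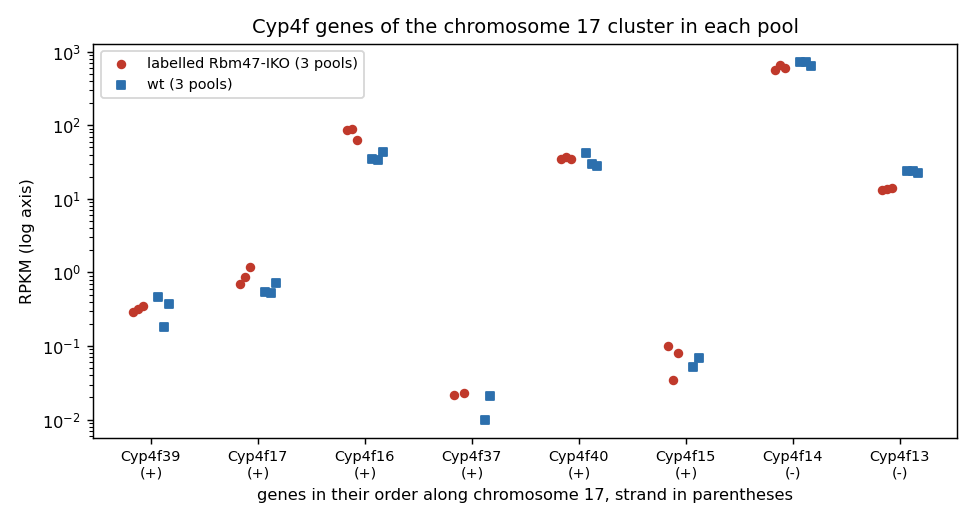
Level in RPKM (log axis) of the 8 Cyp4f genes on chromosome 17 in every pool, in their order along the chromosome with the strand in parentheses; red circles are labelled Rbm47-IKO pools, blue squares wt pools, and pools at 0 are not drawn. Cyp4f16 is higher and Cyp4f13 lower in all 3 labelled Rbm47-IKO pools, while Cyp4f40 between them overlaps.

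The other Cyp4f genes did not pass the test. Cyp4f40 overlapped at 63.9 to 69.6 CPM against 51.1 to 77.8 CPM (log2 fold change 0.10), Cyp4f17 at 1.18 to 2.02 against 0.896 to 1.23 CPM (0.61), and Cyp4f39, which hydroxylates very long fatty acids of the skin barrier, at 0.462 to 0.551 against 0.290 to 0.735 CPM (-0.10). Cyp4f18 on chromosome 8, the leukotriene hydroxylase of neutrophils, was at 1.53 to 2.45 against 2.53 to 2.69 CPM, which did not overlap (log2 fold change -0.40, adjusted p = 0.521). Summed over its 9 members, the Cyp4f subfamily gave 1736 to 1982 CPM against 1818 to 2013 CPM, and the groups overlapped.

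Cyp4v3 (chr8:45269671-45333216), the counterpart of human CYP4V2, whose loss causes a crystalline retinal dystrophy, hydroxylates medium and polyunsaturated fatty acids. It was at 624, 706 and 621 CPM in labelled Rbm47-IKO pools and at 1066, 1207 and 1388 CPM in wt pools. All wt pools lay above all labelled Rbm47-IKO pools, and the gene fell by 0.91 on the log2 scale (SE 0.14, adjusted p = 0.0211), 1.88-fold lower in mean CPM. Without single pools its adjusted p was 0.0253 to 0.133, above 0.05 without any of the 3 labelled Rbm47-IKO pools (0.133, 0.118 and 0.0832) or wt pool 3 (0.0644), and its log2 fold change was -0.998 to -0.801. In the exon positions deposited with the counts, 36.3% of its exonic bases are also exonic in Gm45753 on the same strand. How reads on shared bases were counted is not stated.

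Cyp2j enzymes turn arachidonic acid into epoxides. Cyp2j6 (chr4:96516138-96553661), the member that supplied nearly all of the subfamily's reads, measured 97.7, 95.8 and 106 CPM against 147, 232 and 271 CPM. The labelled Rbm47-IKO pools lay close together and below the more widely spread wt pools, and the gene fell by 1.12 on the log2 scale (SE 0.21, adjusted p = 0.0401), 2.17-fold lower in mean CPM. With single pools left out the adjusted p was 0.0150 to 0.216 and stayed at 0.05 or less only without wt pool 1, with log2 fold changes of -1.33 to -0.92. Its neighbour Cyp2j9, 14.768 kb away, was at 2.51, 2.43 and 3.58 against 3.65, 5.74 and 5.95 CPM (log2 fold change -0.85, SE 0.28, adjusted p = 0.171). In neither gene did the groups overlap. Cyp2j11, too low to be tested in the main fit, had 5, 5 and 2 counts in labelled Rbm47-IKO pools and 7, 50 and 31 in wt pools. When wt pool 1 was left out it entered the test through the wt pools where it was high. Its call there (1 of the 6 lower in that fit) therefore carries no weight.

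Cyp2c23 (chr19:44005022-44029247), also an arachidonic acid epoxygenase, was the called member with the fewest reads. It measured 1.44, 1.66 and 1.65 CPM against 3.21, 4.37 and 3.76 CPM. The groups were well apart at this low level, and the gene fell by 1.25 on the log2 scale (SE 0.24, adjusted p = 0.0397), 2.38-fold lower in mean CPM. Its adjusted p was 0.0492 to 0.211 with single pools left out and passed only without wt pool 1, with log2 fold changes of -1.36 to -1.13.

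**Figure D4:**
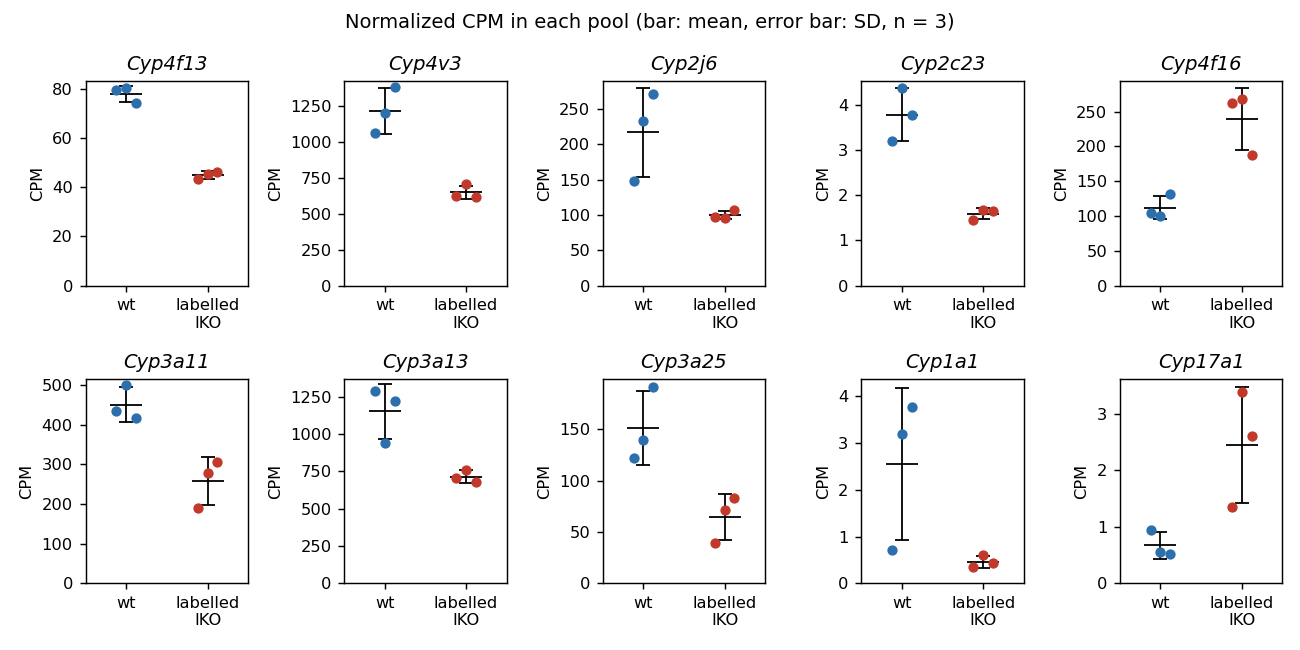
CPM on TMM library sizes in every pool for the 5 called P450 genes (top row) and 5 genes that did not pass the test (bottom row); points are pools, horizontal bars the means and error bars the SD (n = 3 pools a group), on axes that start at 0. The pools of the 2 groups do not overlap in any of the 10 panels, and the spread of the wt pools of Cyp1a1 is the widest relative to its mean.

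The remaining Cyp2c genes, which oxidise arachidonic acid and drugs and lie together on chromosome 19, did not move as a block. Cyp2c65, the most abundant per length, was at 129, 165 and 149 CPM against 100.2, 161 and 161 CPM (log2 fold change 0.07, SE 0.20, adjusted p = 0.921), and its sign turned in 4 of the alternatives tried. Cyp2c66 (0.18), Cyp2c55 (0.40), Cyp2c29 (0.61) and Cyp2c38 (0.54) also had log2 fold changes above 0 and overlapping pools. Cyp2c68 was at 19.5, 22.6 and 26.2 against 28.5, 33.1 and 36.5 CPM (log2 fold change -0.52, SE 0.15, adjusted p = 0.118, and 0.0415 in DESeq2), without overlap, but 43.3% of its windows of 50 bases occur in other members, most in Cyp2c40. Over its 15 members the Cyp2c sum was 209 to 277 CPM against 177 to 276 CPM, which overlapped.

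Cyp3a enzymes are the broadest drug oxidisers of gut and liver. None of the 5 tested (of 7) passed the test in edgeR, and 3 were lower at an unadjusted p under 0.05 (8.21% of all tested genes). DESeq2 called those 3 lower (3.89% of all genes to which it gave an adjusted p). Summed, the subfamily was at 938, 1114 and 1072 CPM in labelled Rbm47-IKO pools and 1850, 1585 and 1838 CPM in wt pools (1041 ± 91.8 against 1758 ± 149 CPM, SD), 1.69-fold higher in wt without overlap. Cyp3a13 (chr5:137892932-137921619), a form known for its expression in the intestine, was at 706, 761 and 679.7 CPM against 1290, 940.1 and 1225 CPM. Its pools did not overlap (log2 fold change -0.69, SE 0.15, adjusted p = 0.0597), and it passed without wt pool 2 (adjusted p = 0.0278) and in 6 of the 14 other alternatives.

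Cyp3a11 (chr5:145854426-145879964), the best studied target of the pregnane X receptor, was at 189, 278 and 307 CPM against 435, 500.2 and 416 CPM. The highest labelled Rbm47-IKO pool stayed below the lowest wt pool (log2 fold change -0.80, SE 0.19, adjusted p = 0.0721). Cyp3a25 (chr5:145977194-146009618), 97.23 kb from it, was at 39.5, 71.0 and 83.3 against 123, 139.8 and 192 CPM, again without overlap (log2 fold change -1.23, SE 0.29, adjusted p = 0.0712). It shares 26.3% of its windows of 50 bases with other members, most with Cyp3a59, which was below 1 CPM in every pool (log2 fold change -0.65, adjusted p = 0.629). Cyp3a44 overlapped at 1.41 to 3.56 against 1.56 to 5.19 CPM (log2 fold change -0.55, adjusted p = 0.676). Labelled Rbm47-IKO pool 1 was the lowest of the 6 pools for both Cyp3a11 and Cyp3a25.

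The upstream stretches of Cyp3a11 at chr5:145879965-145880104 and Cyp3a25 at chr5:146009619-146009868, both on the minus strand, are printed because the genes share a chromosome cluster and a direction of difference.
Cyp3a11: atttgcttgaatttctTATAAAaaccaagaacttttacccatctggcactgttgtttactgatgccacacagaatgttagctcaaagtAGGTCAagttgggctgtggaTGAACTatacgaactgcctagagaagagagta
Cyp3a25: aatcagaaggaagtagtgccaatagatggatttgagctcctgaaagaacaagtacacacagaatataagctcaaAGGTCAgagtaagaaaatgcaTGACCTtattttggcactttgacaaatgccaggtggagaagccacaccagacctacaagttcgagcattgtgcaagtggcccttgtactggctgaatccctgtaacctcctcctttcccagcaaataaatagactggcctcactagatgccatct
Cyp3a11 holds AGGTCA at -162, TGAACT at -142 and TATAAA at -234 from the RefSeq start, which lies 110 bases inside the start in the deposited tables. Cyp3a25 holds AGGTCA at -176 and its reverse complement TGACCT at -155. The window of Cyp3a13 holds none of the letters searched.

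Other drug-oxidising members differed less or were scarce. Cyp2b10 (chr7:25897620-25926624) was at 153, 213 and 233 CPM against 264, 351 and 328 CPM, without overlap (log2 fold change -0.65, SE 0.18, adjusted p = 0.118). DESeq2 called it lower with an adjusted p of 0.0109. Cyp2d22 was at 33.7, 31.8 and 40.2 against 43.6, 53.8 and 56.3 CPM, also without overlap (log2 fold change -0.54, adjusted p = 0.0967, and 0.0191 in DESeq2), whereas Cyp2d26, the most abundant Cyp2d gene, overlapped at 234, 267 and 327 against 208, 382 and 356 CPM (log2 fold change -0.19, SE 0.24, adjusted p = 0.785). Cyp2e1, which oxidises ethanol, ranged from 0.664 to 5.78 and from 0.466 to 3.32 CPM (log2 fold change 0.74, SE 0.83, adjusted p = 0.754). Cyp2s1 and Cyp2u1, forms expressed mostly outside the liver, were at 51.6 to 58.9 against 48.1 to 62.4 CPM and at 42.1 to 46.5 against 40.1 to 58.7 CPM (log2 fold changes -0.02 and -0.14, SE 0.13 and 0.15, adjusted p = 0.960 and 0.732). Cyp2t4 was below 1 CPM in all pools (log2 fold change -0.10, SE 0.39, adjusted p = 0.946).

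Cyp1a1 (chr9:57697613-57703822), the classical target of the aryl hydrocarbon receptor, had the lowest log2 fold change of the tested members. It gave 12, 23 and 14 counts in labelled Rbm47-IKO pools and 24, 121 and 137 counts in wt pools, or 0.347, 0.607 and 0.429 against 0.706, 3.19 and 3.76 CPM. The groups did not overlap, but wt pool 1 lay near the labelled Rbm47-IKO pools and far from the other wt pools (log2 fold change -2.46, SE 0.62, adjusted p = 0.0891). Without wt pool 1 the adjusted p was 0.0190, and over the other pools left out it was 0.124 to 0.279. DESeq2 called it lower (adjusted p = 0.00289). Cyp1b1, which also answers to that receptor, overlapped at 1.01 to 3.46 against 1.38 to 6.03 CPM (log2 fold change -0.48, SE 0.66, adjusted p = 0.812) and turned sign without wt pool 2 (0.53). Cyp1a1 upstream, at chr9:57697363-57697612 on the plus strand, is shown because the gene is the textbook target of that receptor.
Cyp1a1: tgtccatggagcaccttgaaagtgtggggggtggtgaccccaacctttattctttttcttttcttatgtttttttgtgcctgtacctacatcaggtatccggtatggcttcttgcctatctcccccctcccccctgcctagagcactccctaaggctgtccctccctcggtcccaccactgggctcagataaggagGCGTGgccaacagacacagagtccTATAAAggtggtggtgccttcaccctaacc
It holds GCGTG at -54 and TATAAA at -30.

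The members of the Cyp4 family outside Cyp4f and Cyp4v were abundant or nearly silent. Cyp4b1, which oxidises fatty acids and fatty alcohols, overlapped at 273 to 317 against 216 to 349 CPM (log2 fold change 0.16, SE 0.19, adjusted p = 0.768). Cyp4a10 (chr4:115518264-115533649), the fatty acid hydroxylase that PPARα switches on, had 11, 23 and 19 counts in labelled Rbm47-IKO pools and 1, 4 and 4 in wt pools. It entered the test only through the labelled Rbm47-IKO pools, where it was high, so its counts are given as a description, although it is among the 4 members counted as higher at an unadjusted p under 0.05 and by pools that did not overlap. Its call with the muscle covariate carries no weight for the same reason. Its log2 fold change was 2.56 (SE 0.56, adjusted p = 0.0617), and 30.5% of its windows of 50 bases occur in other members. Cyp4a32 overlapped (log2 fold change 0.19, SE 0.54, adjusted p = 0.922).

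Members that act on sterols, steroids and vitamins were mostly low. Cyp27a1 (chr1:74713574-74737890), the mitochondrial sterol hydroxylase, was the abundant one at 85.9, 94.6 and 131 against 224, 93.5 and 128 CPM. Only wt pool 1 stood apart (log2 fold change -0.52, SE 0.31, adjusted p = 0.477). Cyp17a1, an enzyme of androgen synthesis, was at 1.36, 3.38 and 2.60 against 0.941, 0.553 and 0.521 CPM, without overlap (log2 fold change 1.86, SE 0.43, adjusted p = 0.0708), and DESeq2 called it higher (adjusted p = 0.00455). Cyp26b1, which degrades retinoic acid, was at 2.77, 3.49 and 2.60 against 1.06, 2.32 and 0.713 CPM, also without overlap (log2 fold change 1.11, SE 0.44, adjusted p = 0.256), and passed only without wt pool 2 (adjusted p = 0.0463). That pool was the richest of the wt pools in smooth muscle genes (2803 CPM). Labelled Rbm47-IKO pool 3, the richest of its group (3302 CPM), had the lowest Cyp26b1 level of that group. The cause of the Cyp26b1 values was not tested. Cyp7b1 and Cyp39a1, hydroxylases of oxysterols, Cyp2r1, which starts the activation of vitamin D, and Cyp20a1, whose substrate is unknown, all overlapped (log2 fold changes 0.51, -0.11, 0.08 and -0.29, SE 0.80, 0.31, 0.29 and 0.24, adjusted p = 0.840, 0.919, 0.939 and 0.631).

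Of the 53 members that were not tested, 9 had 0 counts in all pools (Cyp19a1, Cyp21a1, Cyp2a22, Cyp2c37, Cyp2c39, Cyp2c69, Cyp2d40, Cyp2g1 and Cyp2j7), and 36 had at most 9 counts in any pool. The other 8 reached 10 or more in some pool. Besides Cyp2j11 they were Cyp4a29 with 34 counts in wt pool 1 and 6 or fewer in every other pool, Cyp26c1 with 24 counts in wt pool 1 and 7 to 10 elsewhere, Cyp2c67, Cyp2w1, Cyp2j8, Cyp2f2 and Cyp11b1. The liver P450 genes of bile acid synthesis, Cyp7a1 and Cyp8b1, and the whole Cyp2a and Cyp11 groups were among the members not tested. A count of 0 here allows up to 3 counts by sampling alone, so such genes were not detectable at this depth.

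Tested members were most numerous on chromosomes 17 and 19, with 8 each, and on chromosomes 4, 5 and 7, with 5 each. The 41 tested members had a median of 1.4 AUUUA motifs per kilobase of 3′ UTR, against 1.17 over 14182 tested genes with an annotated 3′ UTR. The motif was held by 3 of the 4 called lower (median 1.98 per kilobase) and by 23 of the 36 not called (median 1.38 per kilobase). Cyp4f16, the 1 called higher, had none. The share of all tested genes that hold the motif is not given here, and a link between motif and direction was not tested. GC content of the tested members was close to that of all tested genes, with medians of 47.6% and 49.8%.

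The genes that serve P450 enzymes were examined as a list of 41 genes for electron transfer, heme supply, the aryl hydrocarbon receptor pathway and nuclear receptors, of which 38 were tested. Of these 2 were lower and 1 was higher past the test (1.25% and 1.45% of all tested genes), 6 were lower and 5 higher at an unadjusted p under 0.05 (8.21% and 8.57%), and the median log2 fold change was 0.00, against -0.01 for all tested genes. Por, the reductase shared by nearly all microsomal members, overlapped at 213, 256 and 211 against 178, 218 and 204 CPM (log2 fold change 0.18, SE 0.13, adjusted p = 0.555). Pgrmc1, a heme-binding membrane protein that associates with P450 enzymes, fell from 276, 334 and 355 CPM in wt pools to 195, 207 and 183 CPM (log2 fold change -0.72, SE 0.13, adjusted p = 0.0340). Its relative Pgrmc2 was at 66.1, 73.6 and 73.5 against 38.6, 57.5 and 64.2 CPM and did not pass (log2 fold change 0.41, adjusted p = 0.314).

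In heme synthesis, Cpox, the coproporphyrinogen oxidase, fell from 25.0, 31.8 and 26.3 CPM to 18.1, 16.8 and 14.5 CPM (log2 fold change -0.75, SE 0.14, adjusted p = 0.0393). Alas1, the first and rate-limiting step, overlapped (log2 fold change 0.29, adjusted p = 0.427). Both Pgrmc1 and Cpox missed the threshold without any of the 3 labelled Rbm47-IKO pools or without wt pool 2 or 3, and Cpox also without wt pool 1. Pgrmc1 had an adjusted p of 0.0253 to 0.172 and Cpox of 0.0520 to 0.212 in these fits.

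Among genes of the aryl hydrocarbon receptor pathway, Nqo1, a quinone reductase that NRF2 also induces, rose to 49.9997, 58.1 and 40.6 CPM from 15.1, 21.1 and 14.6 CPM (log2 fold change 1.55, SE 0.19, adjusted p = 0.0119). It missed the threshold without labelled Rbm47-IKO pool 1 (0.0651), its pool 2 (0.0834) or wt pool 3 (0.0621). Ahr and Ahrr, the receptor and its repressor, were lower without overlap but did not pass (log2 fold changes -0.31 and -0.70, adjusted p = 0.297 and 0.309), and Arnt and Tiparp overlapped. Cyp1a1 and Nqo1, both listed as targets of this receptor, thus had log2 fold changes of opposite sign.

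None of the 13 nuclear receptor genes passed the test, while 3 were lower and 3 higher at an unadjusted p under 0.05 (8.21% and 8.57% of all tested genes). DESeq2 called 4 genes of the whole list, where it called 3.89% of all genes lower and 4.5% higher. Nr1i2, which encodes the pregnane X receptor, was at 115, 107 and 116 against 204, 126 and 165 CPM, without overlap (log2 fold change -0.55, SE 0.17, adjusted p = 0.153). Nr1i3, the constitutive androstane receptor, overlapped (log2 fold change -0.20, adjusted p = 0.537), as did Ppara (-0.53, adjusted p = 0.222). Vdr, the vitamin D receptor, did not overlap between groups (0.29, adjusted p = 0.273), and Hnf4a, the hepatocyte nuclear factor that marks gut and liver epithelium, overlapped (0.43, adjusted p = 0.276).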

How the data were processed

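Small intestinal mucosa RNA was sequenced in 3 pools per genotype, grouped by the genotype label. Reads were aligned with STAR 2.5.1a and counted with featureCounts 1.4.6-p5 (Subread) on GRCm38, per the labels' processing notes, and the use of strand is not given in the sources used here. The authors deposited per pool a table of raw read counts for 38561 genes, with CPM and RPKM columns that the authors scaled from them by total count and gene length. Those columns were recomputed from the counts, matched, and were not used further. Symbols came from GENCODE M21, which named 36639 genes and left 0.369% of the counts unnamed, and all 94 members overlapped their position there. Promoter windows came from RefSeq and matched 73 members, Cyp2c23 not among them.

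Genes past the filterByExpr function of edgeR 4.0.16 (16425) were normalized by TMM and tested with its quasi-likelihood test, Benjamini-Hochberg adjusted p of 0.05 or less, in R 4.3.3. Limma 3.58.1, DESeq2 1.42.0 and Python 3.11.15 served for alternatives and summaries. CPM and RPKM in the text use TMM library sizes. The procedure was first tested on simulated data with known changes. P-values set the difference between the groups against the spread between pools, which edgeR estimates with information shared across genes. With 3 pools against 3, an exact permutation test of a single value cannot go below 0.1, so none was used. The members and lists were chosen with earlier results of these data known. Given with full statistics were called members, the 10 smallest p, the highest tested member per subfamily and called genes of the partner list, and others by subfamily. Alternatives were 13 other settings, leaving out each of 6 pools, and 1 setting added after seeing the data.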

Additional observations from a re-analysis of the deposited data

How the results depend on the processing

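All 5 called members were also called under size factors of DESeq2 (RLE) or the upper quartile, library size alone, no filter, a filter of 1 CPM in 3 pools, robust dispersion, limma-voom, DESeq2 and a smooth muscle covariate. DESeq2 called 1243 genes, with 11 members lower and 2 higher, and the muscle covariate 711, with 11 and 3. Among those 3 was Cyp4a10, which passed the filter only through the labelled Rbm47-IKO pools, so that call carries no weight. An offset for GC content left 270 genes, with 1 member lower and 1 higher, and 1 partner gene. A covariate of Y-linked genes left 59, with 1 member lower and 0 higher, and 1 partner gene. Same-numbered pools correlated at 0.408, -0.0026 and -0.277, so that the numbers were not taken as pairs. With the replicate number as a block 100 genes passed, with 1 member lower (Cyp3a25) and 0 higher, and 1 partner gene, and with block and GC offset 56 genes, 0 members in either direction and 1 partner gene. Without labelled Rbm47-IKO pool 3 and wt pool 2 together, a setting added after seeing the data, 1 member was lower, Cyp4f16 stayed higher and 1 partner gene passed. The share of all genes called in that fit is not given here, so these calls cannot be set beside it. Over the single pools left out, all genes called ranged from 0 to 431, members lower from 0 to 6, members higher from 0 to 2, and partner genes from 0 to 2. The 6 include Cyp2j11, whose call carries no weight. The cause of the changes between fits was not tested, and leaving out a pool also lowers the number of pools.

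Among the members given with full statistics, log2 fold changes turned sign only for some that did not pass. Cyp39a1 was 0.0225 with block and GC offset, Cyp2c65 -0.0536 with the Y-linked and -0.0048 with the muscle covariate, Cyp2t4 0.20 with the Y-linked covariate, and, without both muscle-rich pools, Cyp1b1 0.0162 and Cyp4a32 -0.31. Leaving out single pools gave ranges across 0 for Cyp2s1 (-0.128 to 0.0578), Cyp2c65 (-0.12 to 0.19), Cyp2t4 (-0.31 to 0.14), Cyp4a32 (-0.11 to 0.58), Cyp7b1 (-0.16 to 1.90), Cyp2r1 (-0.0328 to 0.180), Cyp39a1 (-0.30 to 0.13), Cyp1b1 (-0.98 to 0.53) and Cyp2u1 (-0.267 to 0.0163). Counts under 10 per pool limit Cyp4a10 in the wt pools and most untested members.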
